A study of Mus musculus with 5 samples.

Results

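The Runx3-bound regions described here are those whose centre lies more than 50 kb from every annotated transcription start site (TSS) in IL-2-activated mouse natural killer cells (NKC). They number 1405 of the 11676 Runx3 peaks in the mm9 assembly, a share of 12.0%. The choice used only the distance to the TSSs of the GENCODE M1 annotation, of which the nearest one counted, whether of a protein-coding or a noncoding transcript. The members closest to the limit lay at 50002, 50044 and 50075 bp, and the closest peaks outside it at 49992, 49952 and 49926 bp. NKC from the spleen of ICR mice were isolated by negative selection, grown for 7 days in 1000 u/ml human recombinant IL-2 and are described in the labels as all NKp46+. Runx3 was immunoprecipitated with an in-house polyclonal antibody in 2 libraries and H3K4me1 with a monoclonal antibody in 1 library, against 2 libraries of rabbit non-immune serum (NIS). All libraries came from the same kind of IL-2-treated cells, so there is no untreated or Runx3-deficient arm here. The authors joined the reads of the 2 Runx3 libraries before calling peaks, and the lists give positions only, so no peak has a height, a depth or a value per library.

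Runx3 is a runt-domain transcription factor that binds DNA together with its partner Cbfb at a short RUNX motif and is needed for the maturation and activation of cytotoxic lymphocytes. RUNX proteins work at promoters and at remote enhancers, where they often bind beside ETS, T-box and AP-1 factors. H3K4me1, monomethylation of a lysine in the tail of histone H3, is found at primed and active enhancers and is commonly lower over the factor-bound centre than over the nucleosomes at its sides. Genes for developmental regulators tend to lie in gene-poor stretches with many remote enhancers.

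The central 200 bp of 9 members show the kinds of sequence that these regions hold. All are from mm9 and read 5′ to 3′ on the plus strand, with RUNX motifs (TGTGGT or TGTGGC or TGCGGT or TGCGGC on either strand) and AP-1 motifs (TGACTCA or TGAGTCA, which are each other's reverse complement) in capitals. The Id2 array, the Tomm20 array, the Runx3 and the Eomes member are shown because these loci return below, the Ets1 and Dscam members because they are among the most remote members with H3K4me1, the latter with both a RUNX and an AP-1 motif. The AP-1 window near Id2 is also among the most remote with both motifs and H3K4me1, the window on chromosome 17 has the most RUNX motifs, and the last is the most remote without one. The Runx3 and Eomes members were added after their values were seen. They hold the most RUNX motifs in the domains of those genes.
Id2 array, chr12:25935045-25935244: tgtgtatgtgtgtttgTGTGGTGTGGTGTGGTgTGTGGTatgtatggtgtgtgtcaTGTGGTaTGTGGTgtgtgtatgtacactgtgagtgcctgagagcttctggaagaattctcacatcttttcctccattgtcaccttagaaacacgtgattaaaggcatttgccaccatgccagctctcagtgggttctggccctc
Id2, AP-1, chr12:26123728-26123927: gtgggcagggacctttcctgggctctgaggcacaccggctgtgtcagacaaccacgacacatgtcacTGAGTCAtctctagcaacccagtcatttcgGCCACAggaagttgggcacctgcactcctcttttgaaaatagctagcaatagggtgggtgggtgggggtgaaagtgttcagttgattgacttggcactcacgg
Tomm20 array, chr8:129371626-129371825: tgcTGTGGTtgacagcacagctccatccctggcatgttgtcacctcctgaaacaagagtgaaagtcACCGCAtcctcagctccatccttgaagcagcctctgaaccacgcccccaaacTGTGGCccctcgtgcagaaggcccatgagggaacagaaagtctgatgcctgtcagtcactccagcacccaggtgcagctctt
Runx3 upstream, chr4:134608738-134608937: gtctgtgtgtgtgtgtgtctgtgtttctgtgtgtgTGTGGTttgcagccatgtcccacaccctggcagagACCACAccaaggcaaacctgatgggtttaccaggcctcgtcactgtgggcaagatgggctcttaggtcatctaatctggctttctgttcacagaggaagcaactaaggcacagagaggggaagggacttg
Eomes upstream, chr9:118283927-118284126: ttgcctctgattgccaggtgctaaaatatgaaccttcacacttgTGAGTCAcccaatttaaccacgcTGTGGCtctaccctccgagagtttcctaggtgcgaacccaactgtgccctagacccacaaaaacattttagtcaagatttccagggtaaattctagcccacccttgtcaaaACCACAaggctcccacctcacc
Ets1 downstream, chr9:32868175-32868374: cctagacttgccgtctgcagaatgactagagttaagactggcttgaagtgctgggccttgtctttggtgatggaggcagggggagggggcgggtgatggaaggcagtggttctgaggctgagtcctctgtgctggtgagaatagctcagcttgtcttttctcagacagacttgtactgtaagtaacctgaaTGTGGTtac
Dscam intron, chr16:97129382-97129581: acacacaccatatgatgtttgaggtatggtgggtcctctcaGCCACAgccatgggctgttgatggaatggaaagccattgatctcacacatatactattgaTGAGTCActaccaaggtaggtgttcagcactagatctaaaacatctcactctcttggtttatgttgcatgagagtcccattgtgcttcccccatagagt
RUNX repeat, chr17:81586879-81587078: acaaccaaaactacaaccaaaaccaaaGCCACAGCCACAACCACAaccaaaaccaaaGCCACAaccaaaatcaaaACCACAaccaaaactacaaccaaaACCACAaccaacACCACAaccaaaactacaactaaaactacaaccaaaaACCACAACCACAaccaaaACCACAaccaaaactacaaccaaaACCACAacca
No RUNX, chr12:93911053-93911252: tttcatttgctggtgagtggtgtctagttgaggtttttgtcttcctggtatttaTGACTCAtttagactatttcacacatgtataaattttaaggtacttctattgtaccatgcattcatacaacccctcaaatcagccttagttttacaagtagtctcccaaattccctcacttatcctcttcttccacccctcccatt

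The Id2 array window holds 6 RUNX motifs, some of them sharing a base within a TGTGG repeat, and the window on chromosome 17 holds 11, the most of any member, within a tandem repeat. The Tomm20 window holds 3 RUNX motifs of 3 different variants. In the Eomes window a TGAGTCA precedes 2 RUNX motifs. The window on chromosome 12 without a RUNX motif lies 511 kb from the nearest TSS, has a GC content of 38% and holds 1 AP-1 motif. Of all members, 19 shared a run of 30 bp with another member in the central 200 bp, so these few are not separate sequences.

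The distance from a member to the nearest TSS had a median of 85.6 kb (25th to 75th percentile 63.8 to 133 kb). Most, 854 (60.8%), lay at 50 to 100 kb, 409 (29.1%) at 100 to 200 kb and 142 (10.1%) beyond 200 kb, of which 10 lay beyond 500 kb. For 69.3% the nearest TSS belonged to a protein-coding gene, and the median distance to a protein-coding gene start was 111 kb. The sequence over 50 kb from every TSS added up to 946 Mb, or 37.0% of the known bases, and held 1.49 members per Mb, against 6.38 other Runx3 peaks per Mb in the rest of the genome. Member width ran from 238 to 1874 bp with a median of 681 bp, and 685 bp in the 5322 Runx3 peaks at 5 to 50 kb from a TSS, the class nearest to them. Peaks wider than the median of all Runx3 peaks, 704 bp, made up 44.8% and 45.6% of the classes, and this difference was not significant (odds ratio 0.968, adjusted exact p = 0.609).

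**Figure D1:**
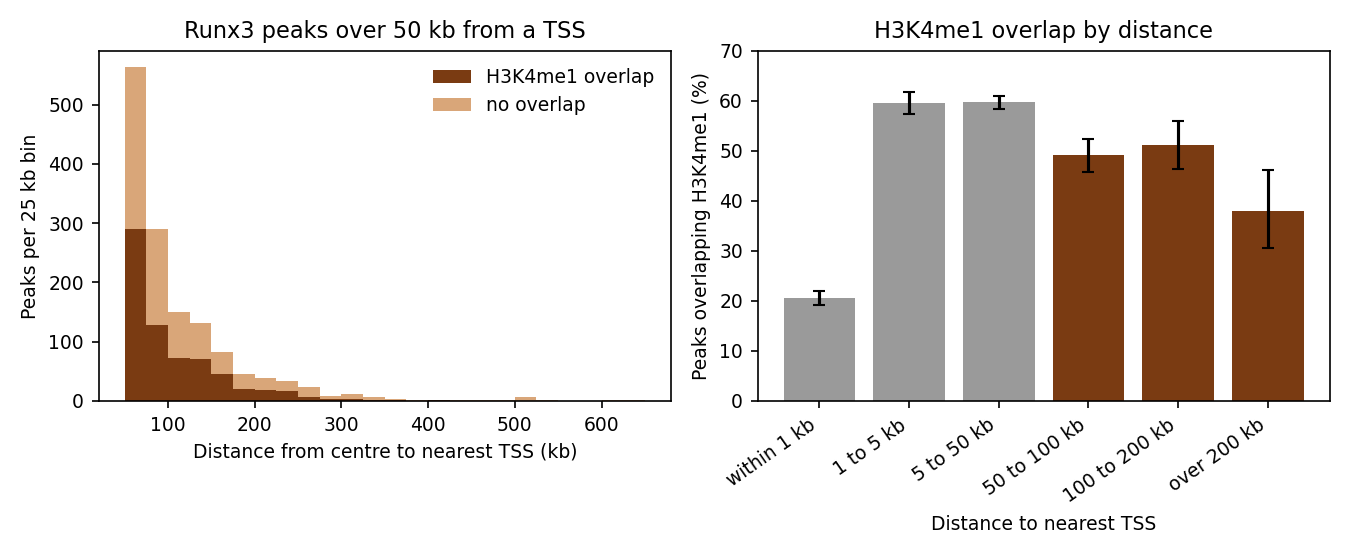
Left, numbers of Runx3 peaks over 50 kb from a TSS in 25 kb bins of distance, stacked by overlap with an H3K4me1 peak. Right, percent of Runx3 peaks that overlapped an H3K4me1 peak by distance class with 95% Wilson intervals. The members (brown) lay at 49.1%, 51.1% and 38.0%, below the 59.7% of peaks at 5 to 50 kb and above the 20.5% of peaks within 1 kb.

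H3K4me1 marked the remote Runx3-bound regions less often than those at 5 to 50 kb, and more often than the peaks within 1 kb of a TSS, where 20.5% (19.1 to 22.0) overlapped the mark and no test was made. Of the members, 682 (48.5%, 95% Wilson interval 45.9 to 51.2) overlapped an H3K4me1 peak by at least 1 bp, where 48.4% of all Runx3 peaks did. At 5 to 50 kb, 3175 peaks (59.7%, 58.3 to 61.0) did, a difference (members minus that class) of -11.1 percentage points (-14.0 to -8.19). The odds ratio was 0.638 (adjusted exact p = 1.95e-13, by a two-sided Fisher test on the peak counts). Within the members, the share was 49.1% (45.7 to 52.4) at 50 to 100 kb, 51.1% (46.3 to 55.9) at 100 to 200 kb and 38.0% (30.5 to 46.2) beyond 200 kb. None of the 10 members beyond 500 kb overlapped the mark, but with so few the interval reaches 27.8%. The intervals at 100 to 200 kb and beyond 200 kb narrowly miss each other (46.3 and 46.2), while that at 50 to 100 kb overlaps both.

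H3K4me1 peaks themselves were scarcer in the remote territory, where they covered 0.278% of the sequence against 1.60% elsewhere. Flanking windows were as wide as their member, placed 10 kb to either side of it, and kept only where they touched no Runx3 peak. They overlapped H3K4me1 in 6.87% of 2764 cases. For single motifs in the central 200 bp of members, the central 200 bp of these windows were read. Read from the side of the mark, 3444 of 34204 H3K4me1 peaks were centred over 50 kb from a TSS, and 820 of these (23.8%) overlapped a Runx3 peak, next to 21.6% of the H3K4me1 peaks at 5 to 50 kb. Members outside the mark were split into those beside it and those far from it. Of the 723 without overlap, 155 had an H3K4me1 peak within 1 kb, 121 at 1 to 10 kb and 447 had none within 10 kb. These 447 made up 31.8% of the members, and the same held for 20% of the peaks at 5 to 50 kb. A missing peak is a missing call in 1 library and does not show that the mark was absent.

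The mark dipped over the bound centre. Of the members, 26.7% lay inside an H3K4me1 peak at the centre itself, 33.0% at 500 bp to the left and 31.5% at 400 bp to the right, falling to 6.55% and 6.69% at 3000 bp. The peaks at 5 to 50 kb had the same outline at a higher level, with 35.6% at the centre, 41.9% at 500 bp to the left and 11% at 3000 bp to the left. In 307 members the H3K4me1 peak reached the Runx3 peak without covering its centre, and in 375 it covered the centre.

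**Figure D2:**
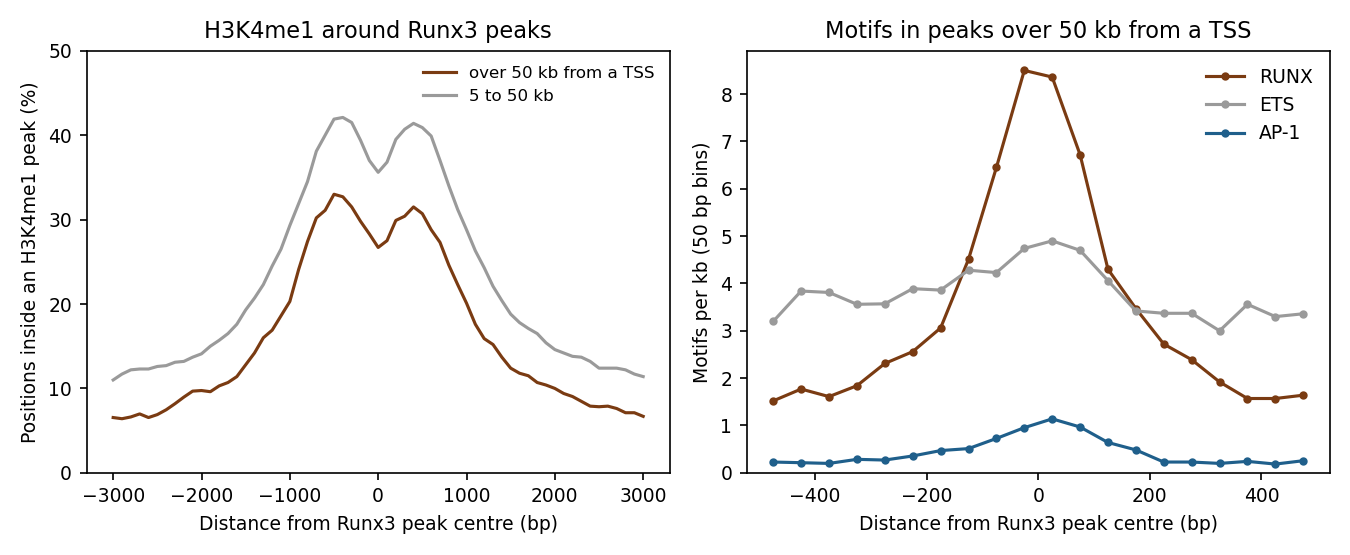
Left, percent of Runx3 peaks with an H3K4me1 peak at each distance (bp) from the Runx3 centre, for the members (brown) and peaks at 5 to 50 kb (grey). Right, RUNX, ETS and AP-1 motifs per kb in 50 bp bins around the members' centres. H3K4me1 dips to 26.7% at the members' centre, where RUNX motifs reach 8.50 per kb.

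The RUNX motif was present in the central 200 bp of 1127 members (80.2%, 78.0 to 82.2), in 79.6% (78.5 to 80.7) of the peaks at 5 to 50 kb and in 77.0% of all Runx3 peaks. The difference between members and the 5 to 50 kb class was 0.619 percentage points (-1.79 to 2.90, adjusted exact p = 0.667). In the flanking windows the share was 27.8% (26.1 to 29.5), with an odds ratio of 10.5 for the members over the windows (adjusted exact p = 2.09e-235). The direction against the 5 to 50 kb class turned when whole peaks were read (odds ratio 0.923) or when members under 100 kb from a TSS were left out (0.951).

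TGTGGT, the variant found most often, was in 64.1% of the members' central windows, 60.9% of those at 5 to 50 kb and 15.7% of the flanking windows. TGTGGC was in 33.2% of members, TGCGGT in 6.41% and TGCGGC in 2.92%, and all 4 variants were more frequent than in the flanking windows (odds ratios 9.62, 3.61, 4.23 and 1.82). Against the 5 to 50 kb class the variants had adjusted exact p between 0.113 and 0.799. In whole peaks, TGCGGC (6.90% and 10.1%, adjusted exact p = 0.00134) and TGCGGT (12.2% and 14.8%, adjusted exact p = 0.0385) were lower in the members. A RUNX motif was somewhere in the whole peak of 1346 members (95.8%), with a median of 3 per member, a 25th to 75th percentile of 2 to 4 and a maximum of 39. The motif nearest to the centre lay a median of 34.5 bp from it, and 830 members (61.7% of those with a motif) had one within 50 bp. RUNX motifs rose from 1.52 per kb at 475 bp left of the centre to 8.50 per kb next to it.

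Several other motifs differed between the members and the sequence around them, and none passed the test against the 5 to 50 kb class. The flanking windows were not matched to the members for GC content, and the part of GC in the differences from them was not tested. Of the 19 motif definitions tested in the central 200 bp, 13 differed from the flanking windows at an adjusted exact p below 0.05, 11 of them higher. AP-1, the site of Fos, Jun and Batf dimers, was in 239 members (17.0%, 15.1 to 19.1) and in 3.84% of the windows, an odds ratio of 5.14 (adjusted exact p = 2.10e-44). The share was 12.6% in all Runx3 peaks and 15.0% in those at 5 to 50 kb (adjusted exact p = 0.202 for members against that class). ETS motifs (AGGAAA or AGGAAG or CGGAAA or CGGAAG), read by Ets1 and its relatives, were in 59.9% of members, 57.7% of peaks at 5 to 50 kb and 43.9% of windows.

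T-box motifs (GGTGTGA), sites of Eomes and T-bet, were in 8.19% of members and 2.93% of windows (odds ratio 2.95, adjusted exact p = 8.41e-13). E-box motifs (CAGCTG or CAGGTG), sites of the E proteins that Id2 antagonises, were in 26.3% and 19.5% (odds ratio 1.47). KLF-SP motifs (GGGCGG or GGGTGG) were in 20.4% and 14.4% (1.52), and CRE motifs (TGACGTCA or TGACGCAA), rare in both, in 0.854% and 0.0724% (11.9). Motifs of GATA factors (letters AGATAA) were less frequent, in 9.40% of members and 12.2% of windows (adjusted exact p = 0.0104), as were those of NFAT (letters TGGAAA), in 15.4% and 18.3% (adjusted exact p = 0.0283). Both lost the call in whole peaks (adjusted exact p = 0.187 and 0.241) and in the central 100 bp (0.0516 and 0.0521). For STAT (TTCNNNGAA), IRF (GAAA, any 2 bases, GAAA), NF-kB (GGGAA or GGGGA or GGGAC, then any 3 bases and CC), C/EBP (TTGCGCAA or TTGCATAA or TTGCACAA or TTACGTAA), TCF (CTTTGAA or CTTTGAT) and CTCF (CCA, any 2 bases, AG, any 2 bases, GGC) motifs the difference from the windows was not significant (adjusted exact p from 0.288 to 0.749).

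GATA was in 9.40% of members and 7.22% of peaks at 5 to 50 kb, with an adjusted exact p of 0.109. It passed when whole peaks were read (32.2% and 27.3%, adjusted exact p = 0.00134) or when 1 peak per array was kept (10.3% and 7.20%, adjusted exact p = 0.0213). NF-kB was in 5.48% and 7.40% (adjusted exact p = 0.109), and passed in whole peaks at 19.5% and 23.2% (adjusted exact p = 0.00862).

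**Figure D3:**
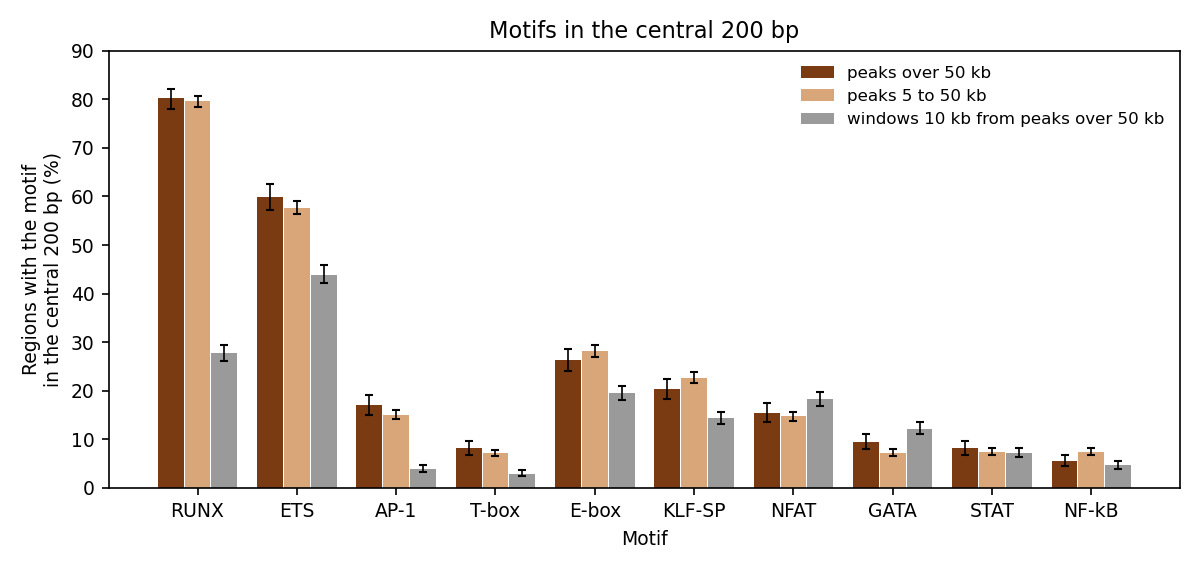
Percent of members, of Runx3 peaks at 5 to 50 kb and of windows 10 kb from the members that hold each motif in the central 200 bp, with 95% Wilson intervals. RUNX stands at 80.2%, 79.6% and 27.8%, and AP-1 at 17.0%, 15.0% and 3.84%.

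Pairs of motifs within 50 bp of each other were also far more frequent in the members than in their flanking windows. A pair of RUNX motifs was in 30% (27.6 to 32.4) of members and 3.11% (2.53 to 3.83) of windows, with a median gap of 25 bp. An ETS motif beside a RUNX motif was in 35.1% (32.6 to 37.6) and 6.84% (5.96 to 7.84). An AP-1 motif beside a RUNX motif was in 118 members, 8.40% (7.06 to 9.96), and in 0.615% (0.384 to 0.983) of windows. At 5 to 50 kb the shares were 30.6%, 33.8% and 8.70%, each with an interval that overlaps that of the members. These pairs were given by their intervals and were not tested.

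Base composition separated the remote regions from nearer ones. The central 200 bp exceeded 51.5% GC, the median of all Runx3 peaks, in 26.4% of members and 37.0% of peaks at 5 to 50 kb (odds ratio 0.611, adjusted exact p = 1.95e-13). Over all 2080 6-mers, each read with its reverse complement, 11 differed between the classes, a share of 0.529%, and 5 of these were higher in the members. The 10 with the smallest p are named. AATGTC (11.9% of members and 8.29% of the 5 to 50 kb class), ACAATG (14.2% and 10.4%), AACAAT (8.97% and 5.96%), AAGATT (8.83% and 5.94%) and ATTGTG (14.2% and 10.5%) were higher. CTGGGA (12.7% and 17.7%, odds ratio 0.673, adjusted exact p = 0.00752), CGCCGC (0.214% and 1.45%), CTGCCC (17.0% and 21.8%), GCAGCC (14.2% and 18.4%) and CCGGGA (1.42% and 3.16%) were lower. No 6-mer differed when both classes were held to 45 to 55% GC. In that band the H3K4me1 difference was 50.3% against 60.6%, with an odds ratio of 0.657 (adjusted exact p = 6.21e-08).

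Members with and without H3K4me1 differed in their motifs. This comparison of 682 with 723 members, over 23 features, was chosen after the data were seen. In the central 200 bp, TGTGGT was less frequent in the members with the mark, 57.9% (54.2 to 61.6) against 70% (66.5 to 73.2). The odds ratio was 0.590 and the adjusted exact p 2.18e-05. Whole peaks with and without the mark held RUNX motifs in similar numbers, a median of 3 in both and means of 3.09 and 3.01. ETS motifs were more frequent, 65.0% against 55.2% (adjusted exact p = 8.07e-04), as were KLF-SP motifs, 25.1% against 15.9% (adjusted exact p = 9.79e-05), and NF-kB motifs, 7.48% against 3.60% (adjusted exact p = 0.00484). AP-1 was in 17.9% and 16.2% and T-box in 8.36% and 8.02%, neither of them called. Members with the mark were also more often wider than 704 bp (56% and 34.3%, adjusted exact p = 3.12e-15), with median widths of 726 and 635 bp. They were richer in GC (above 51.5% in 36.7% and 16.7%, adjusted exact p = 4.73e-16). Another Runx3 peak lay within 10 kb of them more often (34.0% and 23.2%, adjusted exact p = 5.08e-05).

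Width and GC moved with the mark, and a wider peak reaches the 1 bp overlap that defines the mark more easily. Neighbours were measured between peak centres, but width still enters through the grouping by overlap. Between 45 and 55% GC, TGTGGT, ETS and KLF-SP kept their calls, while NF-kB (7.04% and 4.09%, adjusted exact p = 0.161) and any RUNX variant (77.8% and 83.6%, adjusted exact p = 0.0833) did not. With the mark required at the Runx3 centre, ETS (64.3% and 58.3%, adjusted exact p = 0.104) and any RUNX variant (76.3% and 81.7%, adjusted exact p = 0.0923) were no longer called. With 1 member per array, NF-kB was in 6.85% and 3.79% (adjusted exact p = 0.0787). These settings were chosen after the data were seen. The part of width, GC or signal strength in these differences was not tested beyond this.

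Of the members, 538 (38.3%) stood in arrays of 2 or more. Arrays were not particular to them. Keeping 1 peak per array left 1077 of the 1405 members and 4086 of the 5322 peaks at 5 to 50 kb. Only members were chained, so a single member may still have another Runx3 peak nearby. Chained at gaps of up to 20 kb, 867 members were single, 138 chains held 2 and 72 held 3 or more, with 262 members (18.6%) in the latter. H3K4me1 overlapped 42.7% of the single members, 50% of those in pairs and 66.4% of those in arrays of 3 or more. Another Runx3 peak lay within 10 kb of 28.5% of members and 34.7% of peaks at 5 to 50 kb (odds ratio 0.748, adjusted exact p = 1.13e-05), so the remote regions were less crowded.

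The largest array and the largest number of members per gene belonged to Id2, an inhibitor of E-protein transcription factors that NKC need to develop. Id2 (ENSMUSG00000020644.8, chr12:25778666-25780957, minus strand) was the nearest protein-coding gene of 24 members, all upstream of it at 68.8 to 360 kb. Their widths ran from 291 to 1514 bp and 19 overlapped H3K4me1. The 5 without overlap lay 93.2, 145, 146, 159 and 294 kb from the gene, with gaps of 1013, 877, 2475, 5 and 28 bp to an H3K4me1 peak, so each lay within 2475 bp of the mark. A RUNX motif was in 23 of the 24, with 73 motifs in all and 8 in the member whose window opens the sequences above. The member without one, 466 bp wide and 220 kb upstream, lay wholly inside an H3K4me1 peak.

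Of these, 11 members formed 1 array of 59.2 kb (chr12:25896009-25955205), 115 kb from Id2 on one side and 1145 kb from Rnf144a, a ubiquitin ligase gene, on the other. It held 39 RUNX motifs, and 8 of the 11 overlapped H3K4me1. By the rule of GREAT, by which a gene's domain reaches towards its neighbours by up to 1000 kb, the Id2 domain held 28 members of its 32 Runx3 peaks, the farthest at 962 kb.

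**Figure D4:**
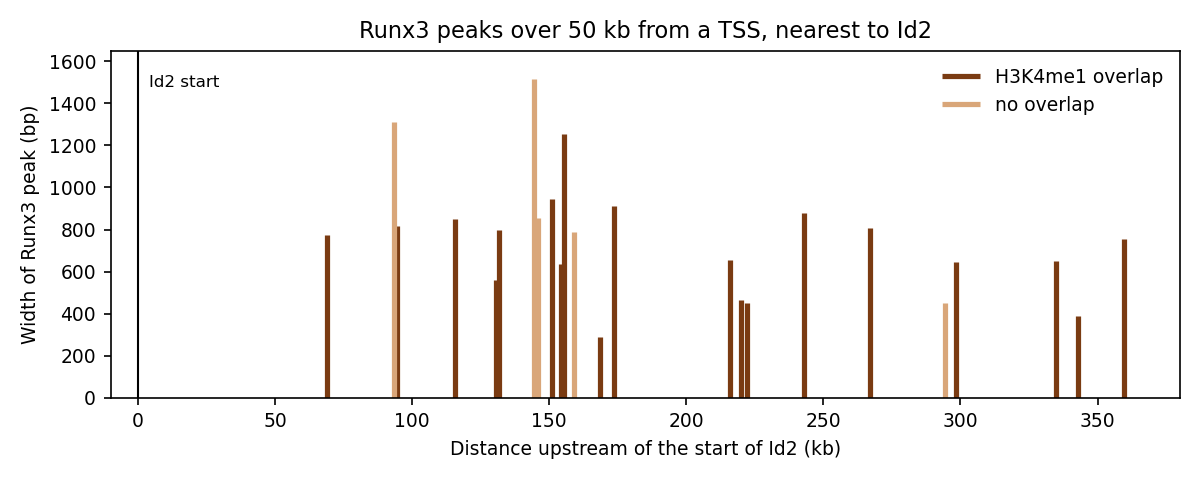
Runx3 peaks over 50 kb from a TSS whose nearest protein-coding gene is Id2, by distance upstream of its start (kb) and width (bp), coloured by overlap with H3K4me1. The 24 peaks run from 68.8 to 360 kb, densest between 115 and 174 kb, and 19 overlap H3K4me1.

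The gap between Irf2bp2, a corepressor partner of interferon regulatory factors, and Tomm20, a subunit of the mitochondrial import receptor, held 2 further arrays on chromosome 8. The one nearer to Tomm20 (chr8:129356321-129406213) had 7 members of 664 to 1346 bp, and all 7 overlapped H3K4me1 and contained RUNX motifs, 28 in all. The one nearer to Irf2bp2 (chr8:129219078-129252285) had 5 members, 4 of them with H3K4me1. The domains of both genes held 14 members each, of which 13 overlapped the mark, since the gap belongs to both.

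Arrays of 5 members also lay between Haao and Zfp36l2, Eea1 and Btg1, Tle3 and Rplp1, in Bcl2 towards Phlpp1, and in Asap1 towards Fam49b. Zfp36l2 encodes a protein that destabilises mRNA, Btg1 an antiproliferative factor, Tle3 a Groucho corepressor of the kind RUNX proteins recruit, and Bcl2 an inhibitor of apoptosis. The array 67.7 kb from Zfp36l2 spanned 12.7 kb with 4 members in H3K4me1. The arrays near Btg1 and between Tle3 and Rplp1 had 5 of 5 members in H3K4me1, and those in Bcl2 and in Asap1 2 of 5.

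After Id2, the genes nearest to most members were Maf with 12, Rplp1, Btg1 and Ets1 with 9 each, Tomm20 with 8, and Tbl1xr1, Gm9869 and Myo16 with 7. A further 11 genes had 6 each (Trib1, Arhgap10, Sesn3, Eomes, Atp10a, Zfp36l2, Bcl2l11, Irf2bp2, Sp4, Etnk1 and Gm22), of which the last 5 were named after their values were seen. In all, 827 protein-coding genes were nearest to a member, 532 of them to 1 and 36 to 5 or more. H3K4me1 was uneven among them. Gm9869 had the mark at 7 of 7 members and Tomm20 at 8 of 8, whereas Ets1 had it at 3 of 9, Tbl1xr1, a transcription corepressor subunit, at 3 of 7 and Atp10a, a phospholipid flippase, at 1 of 6.

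Among the listed gene groups, genes of transcription factors of the NK and T lineages most often had a member in their GREAT domain. It was so for 15 of 25 such genes (60.0%, median 2 members), against 5.99% of all 22350 protein-coding genes (median 0). Their domains were wider, with a median of 350 kb against 89.5 kb over all genes. Signal feedback and survival genes followed with 7 of 22 (31.8%, median domain 291 kb). Neuronal and muscle genes had a member in 0 of 14 (median domain 437 kb), B cell markers in 0 of 10 (47.3 kb) and myeloid markers in 0 of 12 (77.2 kb). A member lies over 50 kb from the gene's own start, so narrow domains can hardly hold one. Lists this short can also give 0 at the 5.99% of all genes. The lists were drawn up with earlier results of these data known, so the counts describe them and were not tested.

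**Figure D5:**
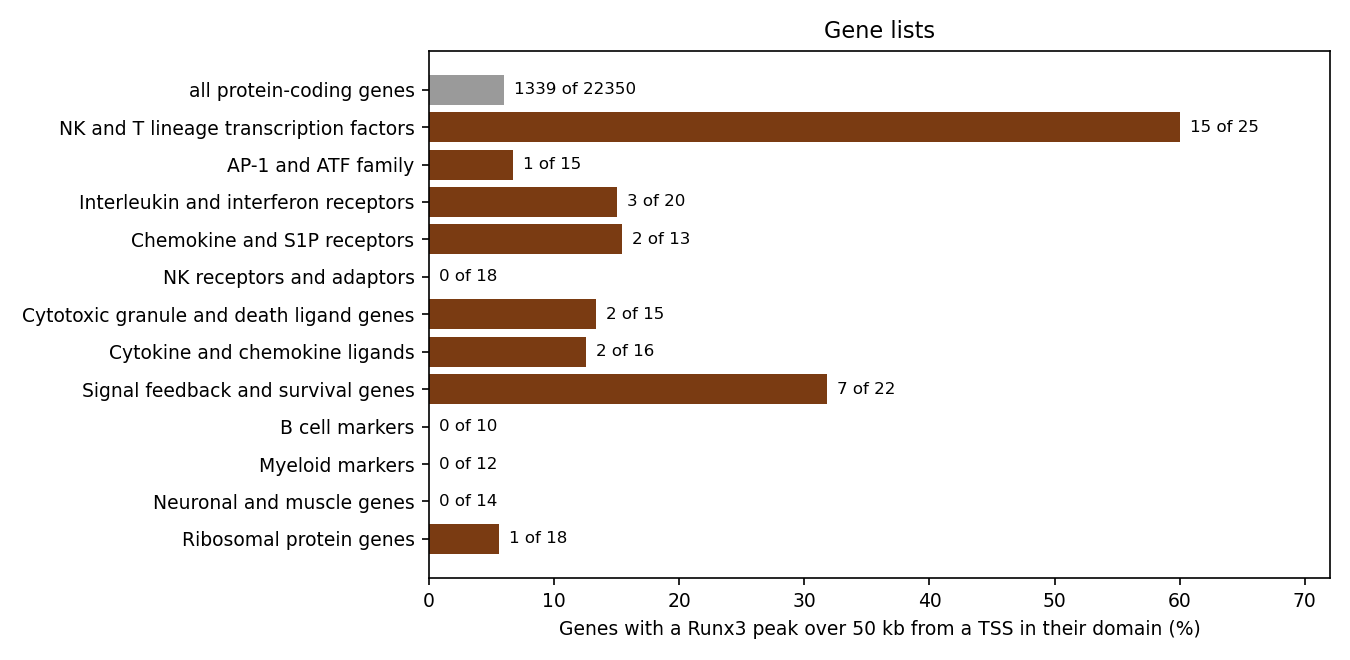
Percent of the genes in each list with a Runx3 peak over 50 kb from a TSS in the GREAT domain, with the number of genes beside each bar. The NK and T lineage transcription factors stand at 15 of 25 and all protein-coding genes at 1339 of 22350.

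Besides Id2, the transcription factor genes with most members in the domain were Ets1 and Runx1 with 9, Foxo1 with 7, and Bcl6 and Eomes with 6. Eomes, a T-box factor of mature NKC, had all 6 upstream, at 121, 114, 113, 103, 72.8 and 61.5 kb. Of these, 4 overlapped H3K4me1, and those at 114 and 113 kb lay 5152 and 6674 bp from the nearest H3K4me1 peak. All 6 contained RUNX motifs, 1 to 5 each, and 2 had AP-1 in the central 200 bp. Ets1, the ETS factor named by the motif above, had all 9 downstream of its start, at 179 to 551 kb, with 3 in H3K4me1.

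Runx3 bound far upstream of its own gene. All 4 members in the Runx3 domain lay between 50.6 and 67.7 kb upstream, were 762 to 1242 bp wide, overlapped H3K4me1 by 76 to 540 bp and held 2 to 4 RUNX motifs. Its paralogue Runx1 had 2 members inside the gene and 7 upstream, as far as 421 kb, with H3K4me1 at 6 of the 9. Satb1, a chromatin organiser of T cells, had 4 members at 105 to 335 kb upstream and H3K4me1 at 0 of 4, with the nearest H3K4me1 peak 713 bp away. Tox, needed for NKC development, had 5 at 161 to 981 kb upstream with H3K4me1 at 1. Nfil3, which acts early in the NK lineage, had 3 at 76.3 to 84.4 kb, and Lef1 3, all with the mark.

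No member lay in the domain of Tbx21 (98.9 kb wide), Gata3 (159 kb), Tcf7 (123 kb), Zeb2 (1185 kb) or Bcl11b (689 kb). In the same list, Bach2, Ikzf3, Myb, Runx2 and Stat5b had none either. Except for Runx2, each of these domains held at least 1 Runx3 peak within 50 kb of some TSS, not necessarily that of the named gene. In the AP-1 and ATF family, Maf had 12 members at 181 to 597 kb, 6 of them in H3K4me1, and the other 14 genes none. Those at 431 to 597 kb from Maf were centred inside Wwox. The Maf domain was 1792 kb wide, and the median in this list was 95.9 kb. Among the other 14 genes, the domains of Jun and Batf3 held 10 and 6 Runx3 peaks that were not members.

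Groups of effector and signalling genes of NKC had a member in 0 to 15.4% of their domains, next to 5.99% of all protein-coding genes. NK receptors and adaptors had one in 0 of 18 domains, though 16 of the 18 held some Runx3 peak, and their median domain was 68.7 kb wide. Cytotoxic granule and death ligand genes had one in 2 of 15. Fasl, the Fas ligand, had 3 at 114 to 156 kb, and Gzmb, a granzyme, 1. Interleukin and interferon receptors had one in 3 of 20 (Ifngr1, Il12rb2 and Il23r), and chemokine and S1P receptors in 2 of 13 (Cxcr4 and S1pr1).

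Cytokine and chemokine ligands had one in 2 of 16, with 4 members each for Ifng and Tnfsf11. The members of Ifng, the main cytokine of activated NKC, lay downstream at 62.9, 159, 340 and 364 kb, held 1, 1, 2 and 2 RUNX motifs, and overlapped H3K4me1 by 0, 4, 510 and 255 bp. Among feedback and survival genes, Bcl2l11, which encodes the proapoptotic Bim, had 6 at 118 to 221 kb, Bcl2 5 inside the gene, Myc 5 at 85.3 to 745 kb with H3K4me1 at 1, and Tgfbr2 5 upstream at 163 to 263 kb with H3K4me1 at 4. Spry2 and Tnfaip3 had 4 each and Smad7 3. Among ribosomal protein genes Rps24 had 3, at 670 to 815 kb, and the other 17 none.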

How the data were processed

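Peaks were read from the deposited lists, whose values are start and end positions in bp with no score or depth. The authors aligned 40 bp reads to mm9 with ELAND, kept unique alignments and called peaks with MACS on joined reads against NIS, scaling down the larger dataset. Starts were counted from 1 here. Genes, 95414 transcripts and sequence came from GENCODE M1 and the same assembly, on 19 autosomes and chromosome X. The members, gene lists and motifs were chosen with earlier results of these data known. Named genes are those nearest to most members, those holding most members, those flanking the largest arrays and those of each list with most members. Motifs were searched on both strands, overlapping matches included. Shares were compared by two-sided Fisher exact tests, adjusted by the method of Benjamini and Hochberg over 4 peak properties, 19 motifs or 2080 6-mers and a threshold of 0.05, and are given with 95% Wilson intervals (Newcombe's for differences), which cover counting error only. Neighbouring peaks are not independent and no replicate enters, so p-values describe the lists. Steps were tested on simulated data. Tools were python 3.11.15, scipy 1.17.1, pandas 2.3.3, numpy 2.4.6, pysam 0.24.0, samtools 1.23.1 and matplotlib 3.10.9.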

Additional observations from a re-analysis of the deposited data

How the results depend on the processing

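No paired analysis was possible because the peak lists pool the libraries and carry no replicate numbers, and for the same reason no library could be left out. The lower H3K4me1 overlap, GC content and crowding of the remote peaks kept direction and call under every alternative run for them, with odds ratios for H3K4me1 from 0.577 to 0.758. With distances taken from protein-coding gene starts only, 2990 peaks were remote and their narrower width was called (odds ratio 0.902, adjusted exact p = 0.0258). The odds ratio of any RUNX motif fell below 1 with a limit of 100 kb (0.951), in whole peaks (0.923) and outside gene bodies (0.999, an alternative chosen after seeing the data), and that of TGCGGC rose to 1.03 between 45 and 55% GC. TGCGGC was called lower with protein-coding starts (0.681), in whole peaks (0.664) and outside gene bodies (0.506), and TGCGGT in whole peaks (0.805). Of 14 other motifs, 0 were called against the 5 to 50 kb class, but 2 with 1 to 50 kb as the comparison, 3 with protein-coding starts, 1 with 1 peak per array and 6 in whole peaks. By unadjusted exact p, GATA (0.00799) and NF-kB (0.0114) were below 0.05 in the central 200 bp. The 11 6-mers, 5 of them higher in the members, became 13 with a limit of 100 kb, 10 of them higher. They became 9 on the autosomes, 40 with 1 to 50 kb as the comparison and 68 with protein-coding starts. They fell to 1 with 1 peak per array and to 0 in peaks at least as wide as the median or between 45 and 55% GC. The last 3 of these settings test fewer peaks, and the cause was not tested otherwise. Genes of the lists with a member numbered 33 by domain, 32 with an extension of 500 kb and 27 by nearest gene. Of 166 values under alternatives, 134 kept direction and call or, for counts, stayed close to the main count. Peaks as wide as the median could not be compared for width. With no score per peak, weak and strong binding could not be told apart.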

Other observations

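Gene bodies held the centres of 491 members (34.9%) and covered 24% of the sequence over 50 kb from every TSS. The remaining 914 were centred between genes. An exon was overlapped by 44 members in all. H3K4me1 overlapped 50.5% of the members in gene bodies and 47.5% of those outside. The introns with most members were those of Gm20388, with 15, and of Arhgap10, Atxn1, a chromatin-binding repressor, and Myo16, an unconventional myosin, with 6 each. Gm20388 is a model of 4435 kb on chromosome 8 that spans many other genes, and all 16 members centred in it overlapped H3K4me1. Without this model, 477 members lay in gene bodies. 2010111I01Rik, Asap1, Auts2, Bcl2, Cdyl2 and Gm14005 held 5 each. Auts2, a gene of neuronal development, had H3K4me1 at 0 of 5 and a RUNX motif in 5 of 5.

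The members were spread unevenly over chromosomes. Chromosome 13 had 134, or 2.65 per Mb of the sequence over 50 kb from every TSS, and chromosome 8 had 127, or 2.36 per Mb. Chromosome 4 was the lowest autosome at 1.00 per Mb. Chromosome X had 1 member among its 60 Runx3 peaks, in 42.1 Mb of such sequence (0.0238 per Mb).

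The 59 members without a RUNX motif were narrower (median 580 bp) than the members as a whole (681 bp). The motif was sought in the whole peak, and a shorter sequence more easily lacks it. Of these 59, 29 (49.2%) overlapped H3K4me1, 44 had an ETS motif and 16 an AP-1 motif in the central 200 bp. Over all 1405 members the numbers were 682 (48.5%), 842 (59.9%) and 239 (17%). These differences were not tested.

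The 5 members farthest from a TSS lay 519 to 636 kb away, on chromosomes 1, 10, 12 and 14, and were 298 to 537 bp wide. Each contained a RUNX motif. The nearest H3K4me1 peak was 2.57 kb away for one and between 526 and 1394 kb for the other 4. The farthest of all, 636 kb from Msl3l2, was 380 bp wide and held 6 RUNX motifs.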
